A study of Mus musculus with 24 samples.

Results

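The surgery by genotype interaction asks whether a kidney gene responds to ischemia reperfusion injury differently in mice with an error-prone mitochondrial DNA polymerase than in littermates with the normal enzyme. For each gene it is a difference of differences on the log2(normalized count + 1) scale, the injury response of PolgD257A kidneys minus the injury response of Polg+/+ kidneys, and it uses 24 of the 24 libraries of the series. The 4 groups of 6 mouse kidney libraries were sham-operated Polg+/+, sham-operated PolgD257A, Polg+/+ after the surgery that the labels call B-IRI, and PolgD257A after B-IRI. The labels give 1 tissue, kidney, for all 24 libraries, and each library of a group is labelled a biological replicate. The D257A change removes proofreading from the catalytic subunit of the polymerase in the whole animal, so a difference after surgery can include anything that the allele did before surgery. Sex, age, strain, the number of D257A alleles and the time between surgery and sampling are not given in the sources used here. A positive term means a more upward, or less downward, injury response in PolgD257A. A negative term means a more downward, or less upward, one.

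Polg copies mitochondrial DNA, and without its proofreading activity point mutations accumulate in the mitochondrial genome, which encodes core subunits of the respiratory chain. The proximal tubule, the segment that reabsorbs most of the filtrate, depends on mitochondrial respiration and is the main site of damage when blood flow to the kidney stops and returns. Injured tubule cells lower their transporters and metabolic enzymes and raise injury genes such as Havcr1 (KIM-1) and Lcn2 (NGAL). In bulk kidney RNA, fewer cells of a type and less RNA per cell cannot be told apart.

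As examples of matched letters in front of genes with opposite terms, 3 promoters are printed here from RefSeq on GRCm38.p6, each from 250 bases before to 50 bases after an annotated start, 5′ to 3′ on the gene's strand. Fgb encodes the fibrinogen beta chain and had 1 of the largest positive terms, Hsd3b3 is a steroid dehydrogenase and Tmem207 a membrane protein of the kidney, both with negative terms. The windows are chr3:83049814-83050113 for Fgb, chr3:98763079-98763378 for Hsd3b3 and chr16:26526722-26527021 for Tmem207, all on the minus strand. Capitals mark matches, on either strand, to letters that factors of the injured or mature tubule are known to bind. These were TGANTCA for AP-1, GTTAAT for an HNF1 half-site, CAAAGTCC for HNF4 and AAGGTCA for estrogen-related receptors (ERR).
Fgb: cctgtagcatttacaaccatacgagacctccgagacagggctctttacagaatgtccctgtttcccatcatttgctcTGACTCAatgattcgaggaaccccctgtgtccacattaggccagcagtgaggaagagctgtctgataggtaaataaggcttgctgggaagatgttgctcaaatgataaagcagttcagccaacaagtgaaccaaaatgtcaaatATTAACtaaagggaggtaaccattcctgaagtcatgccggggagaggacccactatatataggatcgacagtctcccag
Hsd3b3: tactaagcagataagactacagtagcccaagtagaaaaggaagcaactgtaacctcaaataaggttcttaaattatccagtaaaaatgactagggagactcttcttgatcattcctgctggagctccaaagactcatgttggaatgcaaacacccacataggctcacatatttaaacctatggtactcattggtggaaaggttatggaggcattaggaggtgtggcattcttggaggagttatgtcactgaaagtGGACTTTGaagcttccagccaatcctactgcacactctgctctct
Tmem207: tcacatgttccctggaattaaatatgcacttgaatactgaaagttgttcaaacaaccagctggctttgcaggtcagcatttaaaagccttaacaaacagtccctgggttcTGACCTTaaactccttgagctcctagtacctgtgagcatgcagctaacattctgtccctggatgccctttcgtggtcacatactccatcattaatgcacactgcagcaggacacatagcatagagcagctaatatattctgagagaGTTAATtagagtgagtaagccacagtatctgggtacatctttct
The Fgb window holds an AP-1 match and, nearer to the start, an HNF1 half-site. The Hsd3b3 window holds an HNF4 match just after the start. The Tmem207 window holds an ERR match before the start and an HNF1 half-site after it. These 3 were chosen among named genes whose windows hold a match. Of the 30 genes named one by one that have a window in the table, 6 hold any of the 4 motifs and 24, among them Lcn2, Fgg, Timp1, Egf and Ak4, hold none. Krt20, with a positive term, is another of the 6, and its only match is to the ERR letters.

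The same letters were counted in the windows of the 11855 of 17430 tested genes that matched the promoter table. AP-1 letters lay in 6.74% of all these genes, in 9.85% of the 904 with a positive term and in 6.61% of the 1180 with a negative term past the threshold defined below. Among positive terms of at least 1, 18 of 93 genes (19.4%) held them, and among negative terms of at least 1 in size 13 of 131 (9.92%) did. HNF4 letters lay in 1.76% of all genes, 0.885% of the positive and 3.56% of the negative group, and ERR letters in 4.28%, 3.32% and 5.76%. HNF1 half-sites lay in 6.24%, 4.42% and 8.81%. They were found in 15.1% of genes with positive and in 19.1% of genes with negative terms of at least 1 in size. The mean GC content of the windows was 60.0% for all genes, 62.3% and 58.6% for positive and negative terms, and 58.6% and 51.6% for those of at least 1. Base composition therefore moves with the groups, and its part in these shares was not tested.

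Depth ran from 16689284 to 26341004 gene-assigned reads per library. Every sham Polg+/+ library (at most 19737994) lay below every B-IRI Polg+/+ library (at least 19853485). The part of depth in the values of low genes was not tested. Depth in sham was lower for Polg+/+ than for PolgD257A (p = 0.0022 in an exact permutation test, two-sided, which can go no lower with 6 against 6, and adjusted p = 0.011 over 10 tests of library measures), and the B-IRI groups overlapped in depth (p = 0.86). The first principal component, with 56.7% of the variance, placed the sham groups together and separated the genotypes after B-IRI without overlap (3.55 to 33.7 in Polg+/+ and 51.2 to 72.4 in PolgD257A). Xist lay between 0 and 7.42 normalized counts in the 24 libraries, and 4 Y-linked genes summed to 3340 to 4523. This is the expression pattern of male tissue in all 24, though no label gives the sex. Of 17430 genes tested with limma (Benjamini-Hochberg adjusted p under 0.05, the threshold used throughout), 41.2% passed for injury in Polg+/+ (21.4% higher, 19.8% lower), 60.4% for injury in PolgD257A (30.2% higher, 30.3% lower), 0.126% for genotype in sham (0.0861% higher, 0.0402% lower) and 29.5% for genotype after B-IRI (14.3% higher, 15.2% lower).

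The interaction passed in 2780 genes, 15.9% of those tested. In 1198 genes (6.87%) the term was positive and in 1582 (9.08%) negative, and 147 positive (0.843%) and 210 negative terms (1.2%) were at least 1 in size, which is 2-fold. In 2397 of the 2780 genes (86.2%) the estimated injury responses of both genotypes had the sign of the term, and the one in PolgD257A was larger. Of these, 1771 passed for injury in both genotypes and 626 in PolgD257A alone. In 362 genes (13.0%) the 2 injury responses had opposite signs, and in 12 (0.432%) the response was smaller in PolgD257A. In 9 genes (0.324%), called sham-made below, the genotype difference in sham kidneys passed on its own and exceeded the one after B-IRI. Of the 2780 genes, 2586 (93.0%) also passed for genotype after B-IRI and 11 for genotype in sham.

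Across the 17430 genes the 2 injury responses, which share no library, had a Pearson correlation of 0.885, a description over genes that are not independent. The axis through the cloud of points had a slope of 1.61, called k below, so on the log2 scale the injury response was on average that many times as wide in PolgD257A. Genes that rose on average over both genotypes gave a slope of 1.50 (8577 genes) and genes that fell gave 1.77 (8853 genes). Slopes of the gene lists described below ran from 1.05 (ER chaperones and XBP1 targets) to 3.32 (adenylate kinases). Tubular injury genes gave 1.44, loop of Henle genes 3.07 and nuclear complex I genes 3.17, so the widening was not uniform across lists. Of 6320 genes that passed for injury in both genotypes, 6309 moved the same way, and 5392 of these (85.5%) moved further in PolgD257A. Each B-IRI library was also placed on the mean injury response of both genotypes, where 1 is that mean. Polg+/+ libraries had widths of 0.587 to 0.929 (mean 0.779 ± 0.146, SD, n = 6) and PolgD257A libraries 1.11 to 1.35 (1.22 ± 0.105, SD, n = 6). The widths do not overlap, and the lowest was Polg+/+ replicate 1. Because the axis was built from these same libraries, the gap between the groups is a description, and the ratio of the group means was 1.57.

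**Figure D1:**
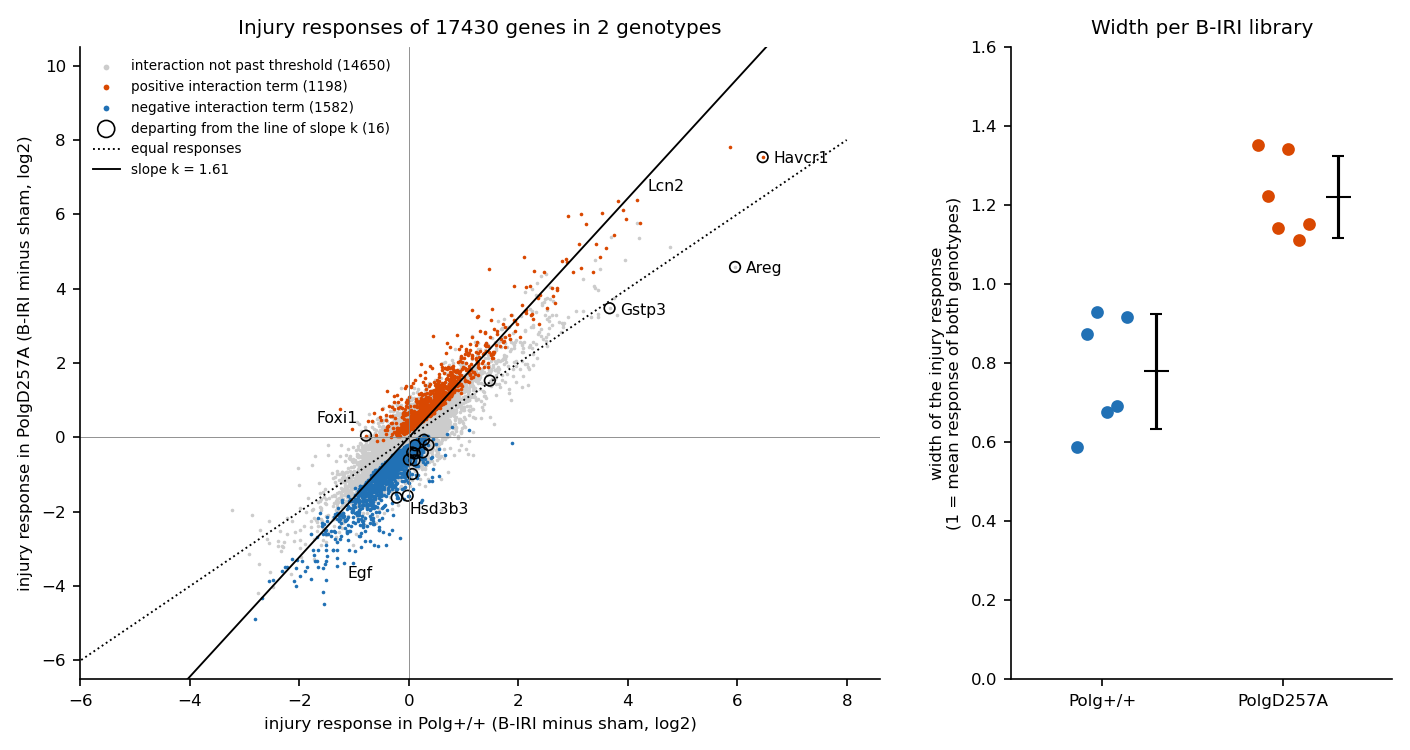
Left, each point is 1 of 17430 genes, with its injury response (B-IRI minus sham, log2) in Polg+/+ on the x axis and in PolgD257A on the y axis, coloured where the interaction passed, with the line of equal responses dotted and the line of slope 1.61 solid. Right, the width of the injury response in each of 12 B-IRI libraries (bars, mean ± SD), where Polg+/+ libraries lie between 0.587 and 0.929 and PolgD257A libraries between 1.11 and 1.35.

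Among genes averaging at least 100 normalized counts, Lcn2 had the largest positive term. Lcn2 (chr2:32384633-32388252 on GRCm38, coordinates of all genes here from GENCODE M21), which encodes the urinary injury marker NGAL, was measured at 57.3 to 109.5 (median 83.7) normalized counts in sham Polg+/+, 60.5 to 96.2 (median 83.1) in sham PolgD257A, 589 to 3709 (median 1632) in B-IRI Polg+/+ and 4486 to 12373 (median 6722) in B-IRI PolgD257A. The sham groups overlapped, and every PolgD257A kidney after B-IRI exceeded every Polg+/+ kidney after B-IRI. Its injury response was 4.17 in Polg+/+ and 6.39 in PolgD257A, and the term was 2.22 ± 0.47, adjusted p = 0.0023 (limma, as for every adjusted p below, ± SE). Krt20, an epithelial keratin that is nearly silent in uninjured tubule, lay at 4.71 to 28.4 (median 16.2) normalized counts in sham Polg+/+, 5.85 to 25.3 (median 15.9) in sham PolgD257A, 414 to 1702 (median 1061) in B-IRI Polg+/+ and 2297 to 5594 (median 3101) in B-IRI PolgD257A. The B-IRI groups did not overlap, and the term was 1.94 ± 0.52, adjusted p = 0.012. With edgeR's quasi-likelihood test on recovered reads the Krt20 term missed the threshold (adjusted p = 0.14).

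Both fibrinogen genes among the 8 largest positive terms are made mainly by liver and also by injured tubule. Fgb, whose promoter is printed above, lay at 13.5 to 51.6 (median 21.3) normalized counts in sham Polg+/+, 19.0 to 34.3 (median 27.7) in sham PolgD257A, 149.6 to 619 (median 418) in B-IRI Polg+/+ and 471 to 2599 (median 2029) in B-IRI PolgD257A. PolgD257A replicate 3, at 471, was the only kidney of its group within the B-IRI Polg+/+ range. The Fgb term was 1.90 ± 0.49, adjusted p = 0.0098, and edgeR gave an adjusted p of 0.0501, just outside the threshold. Fgg, the gamma chain, had a term of 1.70 ± 0.36, adjusted p = 0.0022, and its lowest B-IRI PolgD257A value, 2378, came from the same replicate 3 and overlapped the B-IRI Polg+/+ range.

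Adamts4, a protease of the extracellular matrix, had a term of 1.93 ± 0.38, adjusted p = 0.0014. Timp1, an inhibitor of matrix metalloproteases, had a term of 1.56 ± 0.46, adjusted p = 0.022 that edgeR did not call (adjusted p = 0.16). For both, the 2 genotypes overlapped after B-IRI, and both overlap another gene on the opposite strand, which unstranded counting could not separate. Rasd1, a Ras-like GTPase induced by glucocorticoids, had no response past the threshold in Polg+/+ (0.21 ± 0.22, adjusted p = 0.47). Its counts ran 58.9 to 106 (median 83.8) in sham Polg+/+ and 40.0 to 69.2 (median 54.5) in sham PolgD257A against 72.3 to 142 (median 92.4) and 135 to 467 (median 186) after B-IRI. The term was 1.77 ± 0.32, adjusted p = 0.00063, and a lower sham level in PolgD257A (-0.62 ± 0.22, adjusted p = 0.45, not past the threshold) is part of its size.

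**Figure D2:**
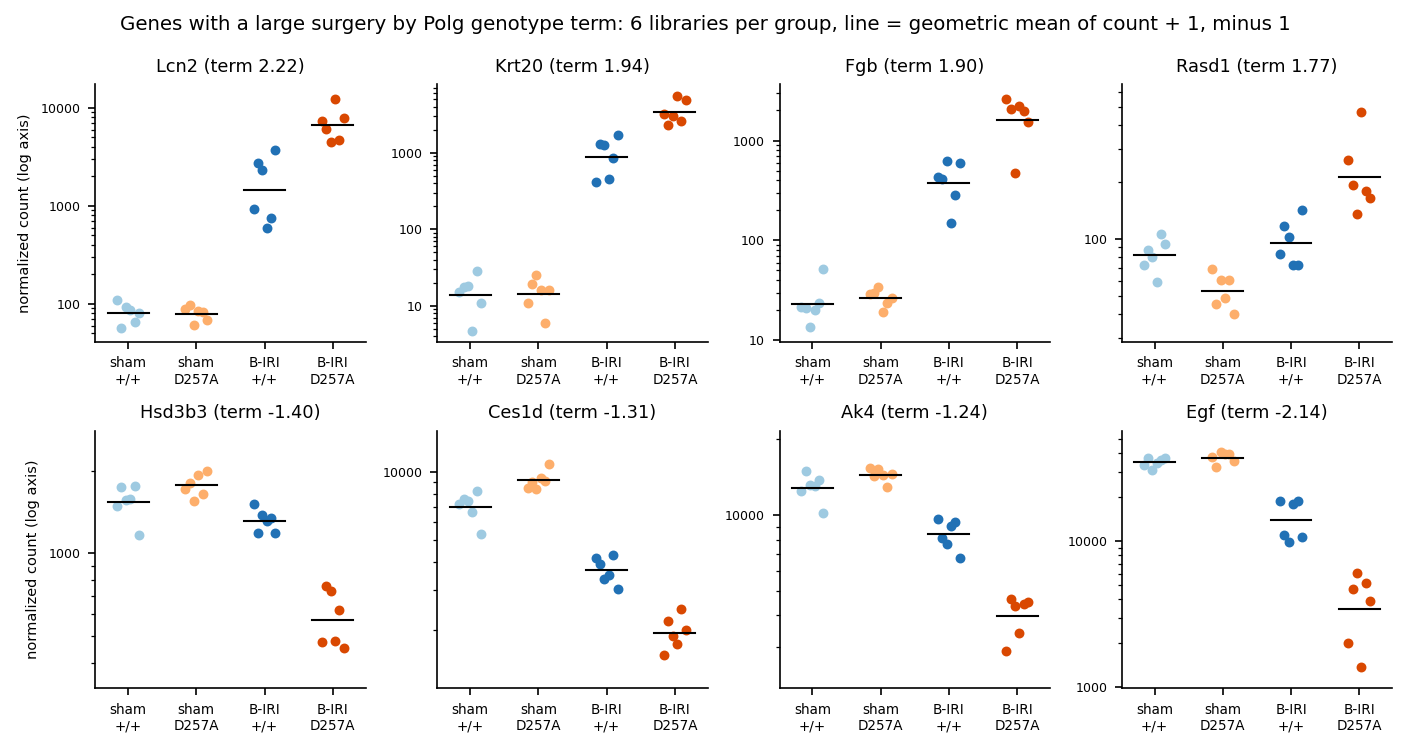
Normalized counts on log axes for 8 genes in the 24 libraries, 6 points per group, with a line at each group's geometric mean of count + 1, minus 1, and the interaction term above each panel. In the upper row (Lcn2, Krt20, Fgb, Rasd1) B-IRI PolgD257A has the highest mean, with an Fgb library at 471 and a Rasd1 library at 135 inside the B-IRI Polg+/+ ranges, and in the lower row (Hsd3b3, Ces1d, Ak4, Egf) its 6 libraries lie below every B-IRI Polg+/+ library.

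The smallest adjusted p-values of the whole table fell on genes of mature tubule with negative terms, among them Hsd3b3, Ces1d and Ak4. Hsd3b3 (chr3:98741523-98763127), a kidney 3-beta-hydroxysteroid dehydrogenase, lay at 1164 to 1751 (median 1571) normalized counts in sham Polg+/+, 1551 to 1989 (median 1757) in sham PolgD257A, 1182 to 1508 (median 1329) in B-IRI Polg+/+ and 452 to 759 (median 551) in B-IRI PolgD257A. Polg+/+ kidneys after B-IRI overlapped with their own sham group (-0.22 ± 0.12, adjusted p = 0.13), whereas all 6 PolgD257A kidneys after B-IRI fell below the range of the other 18 libraries (-1.62 ± 0.12, adjusted p = 5.2e-12). The term was -1.40 ± 0.16, adjusted p = 2.9e-05. Ces1d (chr8:93166068-93197838), a carboxylesterase that hydrolyses esters and triglycerides, lay at 5296 to 8185 (median 7344) normalized counts in sham Polg+/+, 8432 to 10826 (median 9061) in sham PolgD257A, 3018 to 4268 (median 3696) in B-IRI Polg+/+ and 1540.2 to 2459 (median 1930.3) in B-IRI PolgD257A. Each of the 4 groups stood apart from the 3 others, with sham PolgD257A highest, a sham genotype difference that did not pass (0.39 ± 0.11, adjusted p = 0.21). The injury response was -0.93 in Polg+/+ and -2.24 in PolgD257A and the term -1.31 ± 0.15, adjusted p = 2.7e-05. Ak4 (chr4:101419277-101466995), an adenylate kinase of the mitochondrial matrix, lay at 10184 to 15002 (median 13134) normalized counts in sham Polg+/+, 12922 to 15397 (median 14517) in sham PolgD257A, 6786 to 9691 (median 8601) in B-IRI Polg+/+ and 2880.5 to 4661 (median 4405) in B-IRI PolgD257A. The sham groups overlapped and the B-IRI groups did not, with a term of -1.24 ± 0.15, adjusted p = 4.1e-05. Both Hsd3b3 and Ces1d belong to clusters of near-identical genes, so how reads were split among copies is uncertain.

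The carboxylesterase and 3-beta-HSD families had 15 members high enough to test, of 29 listed, and 7 passed with a negative term and 0 with a positive one. Beside the pair above these were Ces1f (-1.02), Ces1e (-0.72), Ces2b (-1.19), Hsd3b2 (-0.72) and Hsd3b4 (-1.44). The families' median term was -0.72, against 0.00 over all genes tested, of which 9.08% had a negative and 6.87% a positive term past the threshold. Of 7 adenylate kinases tested, 4 had a negative term past the threshold and 0 a positive one. Ak4 was joined by Ak3, also of the matrix (-0.45), the cytosolic Ak1 (-0.61) and Ak7 (-0.85), a kinase of ciliated cells.

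Other large negative terms came from the loop of Henle, the distal nephron and the straight proximal tubule. Egf (chr3:129677565-129755316), the growth factor precursor made by the thick ascending limb and distal tubule, lay at 30655 to 37199 (median 35289) normalized counts in sham Polg+/+, 32254 to 40578 (median 38627) in sham PolgD257A, 9953 to 18852 (median 14462) in B-IRI Polg+/+ and 1378 to 6080.3 (median 4292) in B-IRI PolgD257A. All 6 PolgD257A kidneys after B-IRI lay below all Polg+/+ kidneys after B-IRI. The response was -1.31 in Polg+/+ and -3.45 in PolgD257A and the term -2.14 ± 0.35, adjusted p = 0.00031. Pvalb, the calcium-binding parvalbumin of the early distal convoluted tubule, had a term of -2.09 ± 0.50, adjusted p = 0.0054, and 1 B-IRI PolgD257A kidney (306) lay within the Polg+/+ range. Slc7a13, an aspartate, glutamate and cystine transporter of the straight proximal tubule, fell from 21569.8 to 27350.5 (median 24031) to 6144 to 11216 (median 8099.6) normalized counts in Polg+/+ and from 22821 to 26836 (median 24889) to 1169 to 3631 (median 2098) in PolgD257A (term -1.92 ± 0.26, adjusted p = 9.2e-05). The B-IRI groups of Slc7a13 did not overlap.

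Tmem207, whose promoter is printed above, lay at 146 to 383 (median 251) in B-IRI Polg+/+ and 25.7 to 161 (median 76.1) in B-IRI PolgD257A, with slightly overlapping ranges and a term of -1.98 ± 0.41, adjusted p = 0.0022. Mep1b, the beta subunit of the brush border protease meprin, had a term of -1.92 ± 0.35, adjusted p = 0.00069. Kcng1, a modifier subunit of potassium channels, had one of -1.95 ± 0.36, adjusted p = 0.00089, and Nat8f6, of the N-acetyltransferase 8 family, one of -1.94 ± 0.27, adjusted p = 9.2e-05. Nat8f6 overlaps its family member Nat8f5 on the same strand and is uncertain. The largest negative term among genes averaging at least 100 normalized counts, that of Nccrp1, was -2.36 ± 0.67, adjusted p = 0.018, but its 6 B-IRI PolgD257A kidneys ran from 39.9 to 683 and overlapped both sham PolgD257A and B-IRI Polg+/+.

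The proximal tubule and loop of Henle lists below held no positive term past the threshold. Of 9 podocyte genes 1 had a positive term (Synpo, an actin-binding protein, 0.39) and 0 a negative one. That is too few genes to tell from the 6.87% and 9.08% of all genes tested. Of 33 proximal tubule transporters, 18 had a negative and 0 a positive term past the threshold (over all genes tested 9.08% and 6.87%). The median injury response was -0.39 in Polg+/+ and -0.77 in PolgD257A. Slc22a30, an organic ion transporter, had a term of -1.10, the phosphate transporters Slc17a3 and Slc34a1 had -0.87 and -0.89, and Slc3a1, a subunit of the cystine transporter, -0.58. Of 30 proximal tubule metabolic enzymes, 20 had a negative and 0 a positive term. G6pc, which releases glucose in gluconeogenesis, went from a response of -0.91 to -2.65, and Akr1c21, a hydroxysteroid dehydrogenase, from -0.70 to -2.17. Cyp2j5, a cytochrome P450 that makes lipid mediators, had a term of -0.70 and Inmt, a methyltransferase, -1.26.

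The loop of Henle list had a median response of -0.07 in Polg+/+ and -0.69 in PolgD257A. Of its 12 genes, 9 had a negative and 0 a positive term. Beside Egf these included the salt transporter Slc12a1 (NKCC2, -0.48 in Polg+/+ and -1.86 in PolgD257A), the potassium channel Kcnj1 (-0.06 and -0.78) and the tight junction gene Cldn16 (-0.07 and -0.68). Summed over the list, normalized counts were 143321 to 175164 in sham Polg+/+, 145171 to 178201 in sham PolgD257A, 142569 to 166988 in B-IRI Polg+/+ and 75794 to 135519 in B-IRI PolgD257A, so the last group lay below the others without overlap. Among 19 genes of the distal tubule and collecting duct, 6 had a negative and 2 a positive term. The negative ones included the mineralocorticoid gatekeeper Hsd11b2 (-0.41) and the sodium channel subunit Scnn1a (-0.55). The positive ones were the calcium channel Trpv5, which rose by 0.66 in PolgD257A against a response of -0.05 in Polg+/+, and Foxi1, described with the sham differences.

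Nuclear genes of the respiratory chain and the TCA cycle had small negative terms that passed in most members, against 9.08% of all genes tested. Of 36 nuclear genes for complex I, the first enzyme of the respiratory chain, 26 had a negative and 0 a positive term, and all 36 terms lay between -0.52 and -0.22. Injury lowered 12 of the 36 past the threshold in Polg+/+ and 36 of 36 in PolgD257A (median -0.15 in Polg+/+ and -0.54 in PolgD257A). Over all genes tested it lowered 19.8% in Polg+/+ and 30.3% in PolgD257A. Examples were Ndufs1 (-0.45 ± 0.07, adjusted p = 0.00023), Ndufb10 (-0.49), Ndufa10 (-0.32) and Ndufs3 (-0.38). Of 38 nuclear genes for complexes II to V, 23 had a negative and 0 a positive term (median response -0.20 in Polg+/+ and -0.56 in PolgD257A). The TCA cycle, which feeds the chain with electrons, had 18 negative and 0 positive terms among 20 genes. Sucla2, a subunit of succinyl-CoA ligase, went from -0.28 to -0.64 (term -0.36 ± 0.07, adjusted p = 0.0012), and Dlst, a subunit of the oxoglutarate dehydrogenase complex, from -0.13 to -0.45. The 13 mRNAs of the mitochondrial genome itself had 1 term past the threshold with limma, that of mt-Nd6 (-0.32 ± 0.11, adjusted p = 0.039), with terms from -0.34 to -0.19. At an unadjusted p under 0.05 there were 5, and edgeR called 6 and DESeq2 7 of the 13, so this count depends on the tool. The share of reads from the mitochondrial genome was 8.52% to 9.47% in B-IRI Polg+/+ and 8.23% to 8.80% in B-IRI PolgD257A (exact permutation p = 0.037, adjusted p = 0.074), and quantile normalization moved this list's median from -0.25 to -0.090.

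Regulators of mitochondrial biogenesis had 5 negative terms and 1 positive one among 13 genes. Esrra, the receptor ERR-alpha that drives respiratory genes, did not pass for injury in Polg+/+ and fell in PolgD257A (0.00 in Polg+/+ and -0.60 in PolgD257A, term -0.60 ± 0.09, adjusted p = 9.7e-05). Perm1 (-1.42), a co-regulator of respiratory genes, the deacetylase Sirt3 (-0.56) and the coactivator Ppargc1a (-0.45) had negative terms too, and the coactivator Pprc1 a positive one (0.71). Polg itself had no term past the threshold (0.10 ± 0.06, adjusted p = 0.27), and of 18 mitochondrial DNA maintenance genes 1 passed, the packaging and transcription factor Tfam (-0.24). The D257A change alters a codon, so the Polg level does not check the genotype labels.

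**Figure D3:**
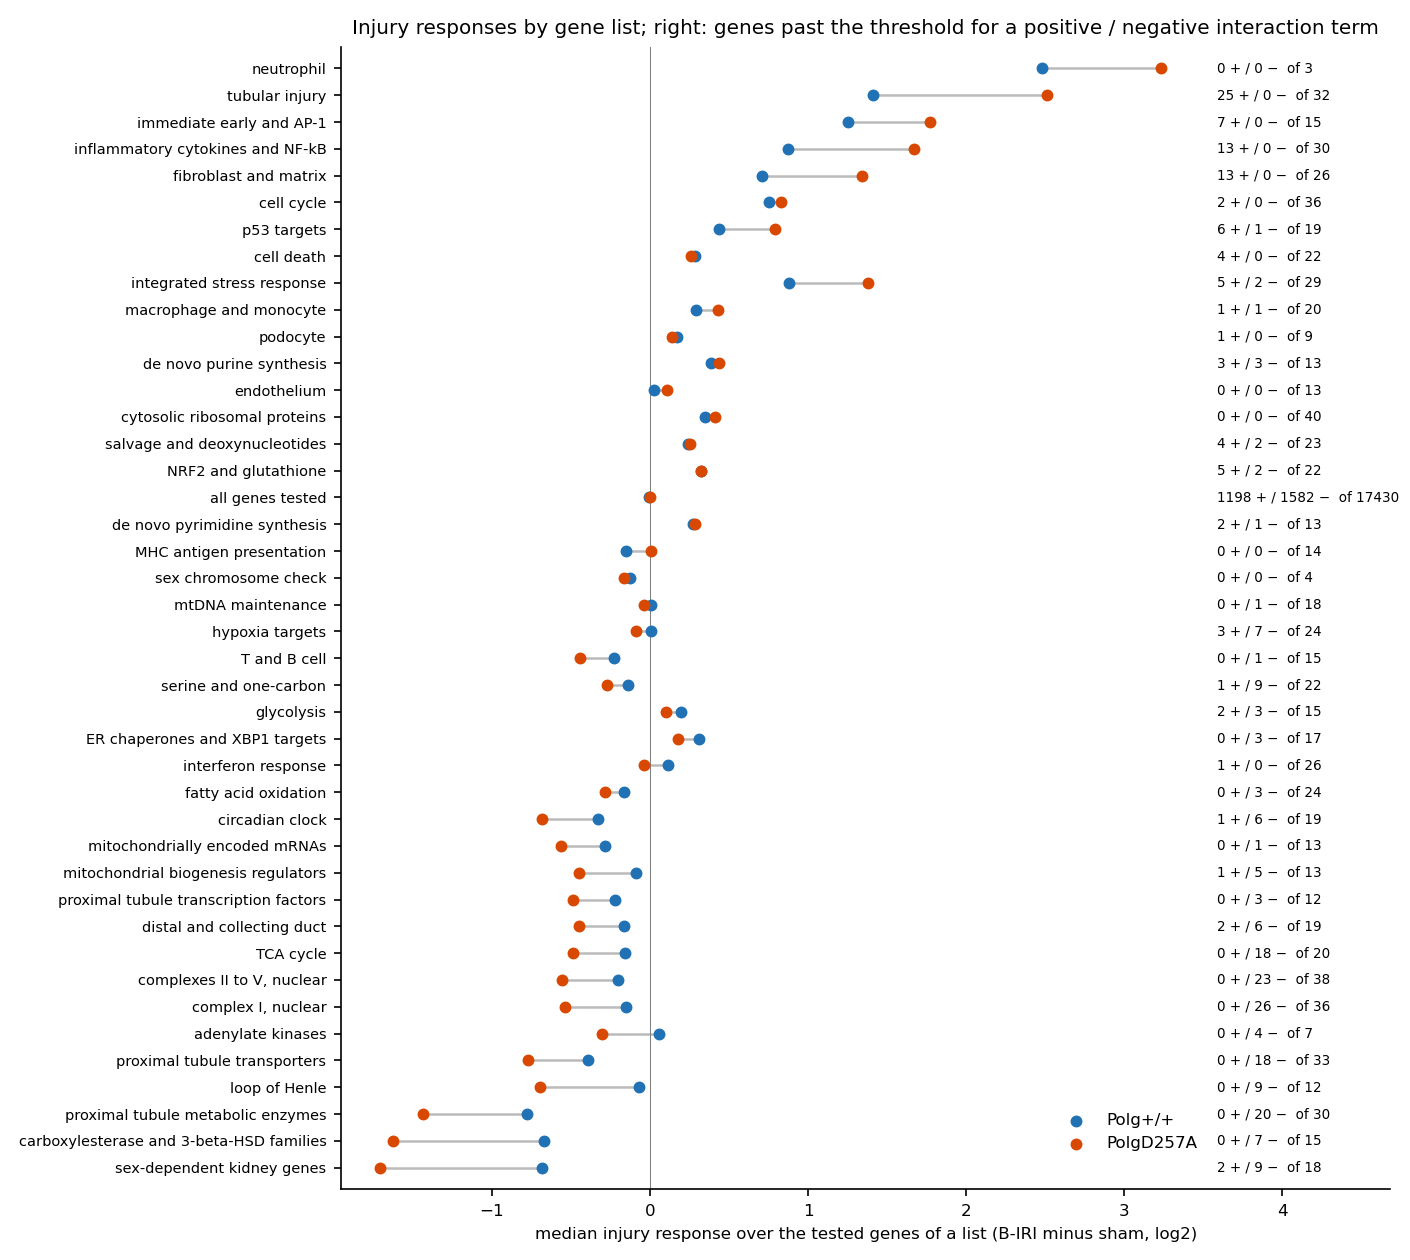
For each gene list, the median injury response of its tested genes (B-IRI minus sham, log2) in Polg+/+ (blue) and PolgD257A (orange), ordered by the median interaction term, with the number of genes past the threshold for a positive (+) and a negative (−) term at the right. Tubular injury, with 25 positive of 32, and complex I, with 26 negative of 36, lie towards opposite ends, and the row of all 17430 genes has both medians at 0.

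Tubular injury, inflammatory, AP-1 and matrix genes whose term passed all had a positive one. Of 32 tubular injury genes 25 had a positive and 0 a negative term (over all genes tested 6.87% and 9.08%). Their median response was 1.41 in Polg+/+ and 2.51 in PolgD257A. Cp, the copper-carrying ceruloplasmin, went from 1.46 to 2.29, and the growth factor Hbegf from 0.13 to 1.03 (term 0.90 ± 0.14, adjusted p = 0.00015). Krt8, a simple epithelial keratin, had a term of 0.89, and Dcdc2a, a doublecortin-domain gene, 1.18. Of 30 inflammatory and NF-kB genes 13 had a positive and 0 a negative term, led by the NF-kB subunits Rela (0.45), Relb (1.21) and Nfkb2 (0.76) and the inhibitor of apoptosis Birc3 (0.65). Of 15 immediate early and AP-1 genes 7 had a positive and 0 a negative term, among them Fosl2 (0.91) and Jun (0.81), subunits of AP-1, and the Krüppel-like factor Klf6 (1.03).

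Fibroblast and matrix genes gave 13 positive and 0 negative terms among 26. Thbs1, a matrix glycoprotein, had no response past the threshold in Polg+/+ and rose in PolgD257A (0.03 in Polg+/+ and 0.83 in PolgD257A, term 0.81 ± 0.14, adjusted p = 0.00036). Lox, which crosslinks collagen, had responses of 0.21 in Polg+/+ and 1.68 in PolgD257A, and the pericyte receptor Pdgfrb a term of 0.76. Summed over the list, counts were 14289.7 to 29255 in B-IRI Polg+/+ and 27562 to 44213 in B-IRI PolgD257A, with a small overlap. Immune cell markers moved less clearly. Of 20 macrophage and monocyte genes 1 had a positive term, the endotoxin co-receptor Cd14 (1.15), and 1 a negative one, the growth factor receptor Csf1r (-0.41), and the list summed to 3156 to 5674 and 4522 to 6669.6 after B-IRI. Neutrophil genes were scarce. Of 10, 3 passed the filter on low counts and 0 of these passed with limma (1 at an unadjusted p under 0.05, and 1 each with edgeR and DESeq2), with terms from 0.68 to 1.24. The 10 summed to 17.1 to 56.0 in the 12 sham libraries and 38.9 to 134 and 88.1 to 525 after B-IRI, with Mpo at 0 in all 18 libraries of the first 3 groups. The part of immune cells in the inflammatory terms was not tested. For 15 T and B cell genes 1 negative term passed (Ighm, the IgM heavy chain, -0.80), and of 13 endothelial genes 0 passed with limma (3 at an unadjusted p under 0.05), edgeR or DESeq2.

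The integrated stress, NRF2 and p53 lists had terms in both directions. Their share of negative terms was near or under the 9.08% of all genes tested, and that of positive terms above the 6.87%. Of 29 integrated stress response genes 25 rose with injury in Polg+/+ and 26 in PolgD257A (over all genes tested 21.4% and 30.2%). Among the 29, 5 had a positive and 2 a negative term. The secreted Gdf15 (1.92 in Polg+/+ and 3.15 in PolgD257A), the factor Atf3 (2.14 and 3.41) and Eif4ebp1, a brake on translation, (1.56 and 2.28) rose further in PolgD257A. The mitochondrial enzyme Shmt2 instead fell in PolgD257A (-0.13 in Polg+/+ and -0.71 in PolgD257A, term -0.58 ± 0.11, adjusted p = 0.0011). The 17 ER chaperones and XBP1 targets had 3 negative terms and 0 positive, those of Herpud1 (-0.62), Dnajc3 (-0.34) and Calr (-0.30). Of 22 NRF2 and glutathione genes 5 had positive terms, including Srxn1 (0.76), Txnrd1 (0.43) and Hmox1 (1.06), and 2 negative, the superoxide dismutases Sod2 (-0.49) and Sod1 (-0.35). Of 19 p53 targets 6 had positive terms, among them Cdkn1a, which stops the cell cycle (2.13 in Polg+/+ and 3.35 in PolgD257A), and Pmaip1, a killer protein of the BCL2 family (0.87), and 1 a negative term, Sesn1 (-0.39).

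The series title names nucleotide synthesis. In the pyrimidine and salvage lists the share of negative terms was near the 9.08% of all genes tested, and that of positive terms above the 6.87%. The lists are short, and no set test was run. De novo purine synthesis had 3 positive and 3 negative terms among 13 genes. Impdh2, which opens the guanine branch, rose more in PolgD257A (0.48 in Polg+/+ and 0.92 in PolgD257A, term 0.43 ± 0.07, adjusted p = 0.00023), as did Impdh1 (0.37) and Prps1 (0.24). Prps2, 1 of the synthetases of the ribose donor PRPP, lay at 1430.4 to 1543 (median 1470.0) normalized counts in sham Polg+/+, 1430.2 to 1580.4 (median 1494) in sham PolgD257A, 1471 to 1601 (median 1548) in B-IRI Polg+/+ and 992 to 1349 (median 1132) in B-IRI PolgD257A. Its B-IRI PolgD257A kidneys lay below all 18 others, with a term of -0.47 ± 0.07, adjusted p = 0.00015, and the adenylosuccinate synthase Adssl1 (-0.61) and the ring enzyme Paics (-0.19) were negative too. De novo pyrimidine synthesis had 2 positive terms, Cad (0.69), the enzyme of its first steps, and Ctps (0.50), and 1 negative one among 13 genes. Salvage and deoxynucleotide genes had 4 positive and 2 negative among 23, with Uck2 (0.45) and Xdh (0.70) positive and Cmpk2 (-0.44) and Rrm2b (-0.26) negative. Serine and one-carbon genes had 9 negative terms and 1 positive one among 22. Sardh (-0.71) and Dmgdh (-0.76), mitochondrial enzymes of choline breakdown, were among the 9, and Mthfd1l, an enzyme that makes formate in mitochondria, was the positive one (0.82).

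Other lists held few or no terms past the threshold. Cytosolic ribosomal protein genes rose in both genotypes by medians of 0.35 in Polg+/+ and 0.41 in PolgD257A. In each genotype 38 of 40 passed, where 21.4% and 30.2% of all genes tested rose. Of the 40, 0 had a term past the threshold with limma (1 at an unadjusted p under 0.05), edgeR or DESeq2. The lowest and highest terms were -0.46 and 0.16, and quantile normalization moved their median from 0.06 to 0.21. Cell cycle genes had 2 positive terms among 36, the replication licensing factor Cdt1 (0.58) and Cdk2 (0.38), with medians of 0.75 in Polg+/+ and 0.83 in PolgD257A. Of 26 interferon response genes 1 passed, Tmem173 (STING, 0.90), and of 14 antigen presentation genes 0 with limma (3 at an unadjusted p under 0.05), edgeR or DESeq2. A term that missed the threshold does not show equal responses. Of 19 clock genes 6 had negative terms and 1 a positive one. The repressor Per3 (-0.64 in Polg+/+ and -1.35 in PolgD257A, term -0.71 ± 0.13, adjusted p = 0.00081) and the output factor Tef (-0.61) were among the 6, and Npas2, a partner of Bmal1, was the positive one (1.04). The time of day of sampling is not given in the sources used here, and its part was not tested.

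The 9 genes whose sham difference passed and exceeded the one after B-IRI need each group to be read on its own. Foxi1 (chr11:34204338-34208089), the master factor of intercalated cells of the collecting duct, lay at 537 to 1044 (median 647) normalized counts in sham Polg+/+, 279 to 423 (median 386) in sham PolgD257A, 328 to 466 (median 387) in B-IRI Polg+/+ and 327 to 438 (median 377) in B-IRI PolgD257A. Sham Polg+/+ kidneys stood above the 18 others, and the 3 other groups overlapped. The sham kidneys differed by -0.87 ± 0.12, adjusted p = 0.00044, the injured ones by -0.04 ± 0.12, adjusted p = 0.85, and the term was 0.83 ± 0.17, adjusted p = 0.0022. Its highest value, 1044 in sham Polg+/+ replicate 6, lay far from the rest of that group, and without that library the term still passed. The injury response was -0.78 ± 0.12, adjusted p = 1.4e-05 in Polg+/+ and 0.05 ± 0.12, adjusted p = 0.76 in PolgD257A.

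In 5 of the 9 genes the sham level was higher in PolgD257A and fell there with injury. Rhobtb1 (chr10:69151434-69291791), a gene of the BTB domain family, lay at 718 to 997 (median 899) normalized counts in sham Polg+/+, 1116 to 1309 (median 1246) in sham PolgD257A, 821 to 1099 (median 934) in B-IRI Polg+/+ and 664 to 885 (median 826) in B-IRI PolgD257A, so that the sham groups were apart and the B-IRI groups overlapped. PolgD257A minus Polg+/+ was 0.50 ± 0.08, adjusted p = 0.0013 among sham kidneys and -0.22 ± 0.08, adjusted p = 0.038 among injured ones, opposite in sign, and the term was -0.72 ± 0.11, adjusted p = 0.00016. Map3k5, which encodes the stress kinase ASK1, lay at 842 to 1034 (median 922) normalized counts in sham Polg+/+, 1124 to 1320.4 (median 1206) in sham PolgD257A, 812 to 1094 (median 988) in B-IRI Polg+/+ and 801 to 991 (median 943) in B-IRI PolgD257A. Its sham difference was 0.39 ± 0.08, adjusted p = 0.022, that after B-IRI -0.05 ± 0.08, adjusted p = 0.65, and the term -0.44 ± 0.11, adjusted p = 0.0059. Mnt, a repressor that competes with MYC for its partner MAX, had a sham difference of 0.41 ± 0.07, adjusted p = 0.0049, one of -0.02 ± 0.07, adjusted p = 0.86 among injured kidneys, and a term of -0.43 ± 0.10, adjusted p = 0.0044. The short mitochondrial gene mt-Tp, the proline tRNA, differed among sham (1.30 ± 0.09, adjusted p = 1.4e-09) and among injured kidneys (0.90 ± 0.09, adjusted p = 3.7e-07), with a term of -0.40 ± 0.13, adjusted p = 0.039. That term passed in 13 of the 24 fits that left out a library, and it was lost without a filter (adjusted p = 0.074) and with quantile normalization (-0.16, adjusted p = 0.43).

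Hddc3 (chr7:80343104-80350547), which encodes the metazoan relative of bacterial ppGpp hydrolases, had the strongest genotype difference of the 9. It lay at 48.5 to 78.0 (median 58.1) normalized counts in sham Polg+/+, 205 to 252 (median 225) in sham PolgD257A, 57.6 to 65.1 (median 63.6) in B-IRI Polg+/+ and 148 to 212 (median 168) in B-IRI PolgD257A. The genotypes were apart under both surgeries, by 1.93 ± 0.10, adjusted p = 6.7e-13 among sham and 1.45 ± 0.10, adjusted p = 5.5e-10 among injured kidneys, and the term was -0.47 ± 0.14, adjusted p = 0.020. Hddc3 starts 876742 bases from Polg on chromosome 7, and the D257A allele and chromosome 7 sequence inherited with it cannot be told apart. It also overlaps Man2a2 on the opposite strand. The other three genes were low, namely Pla2g4b (medians of 27.1, 15.5, 23.8 and 19.8 in sham Polg+/+, sham PolgD257A, B-IRI Polg+/+ and B-IRI PolgD257A, term 0.63 ± 0.20, adjusted p = 0.029), 6720489N17Rik (0.90) and Gm6576 (1.42). The Pla2g4b term was not called by edgeR (adjusted p = 0.073) or DESeq2 (0.12).

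**Figure D4:**
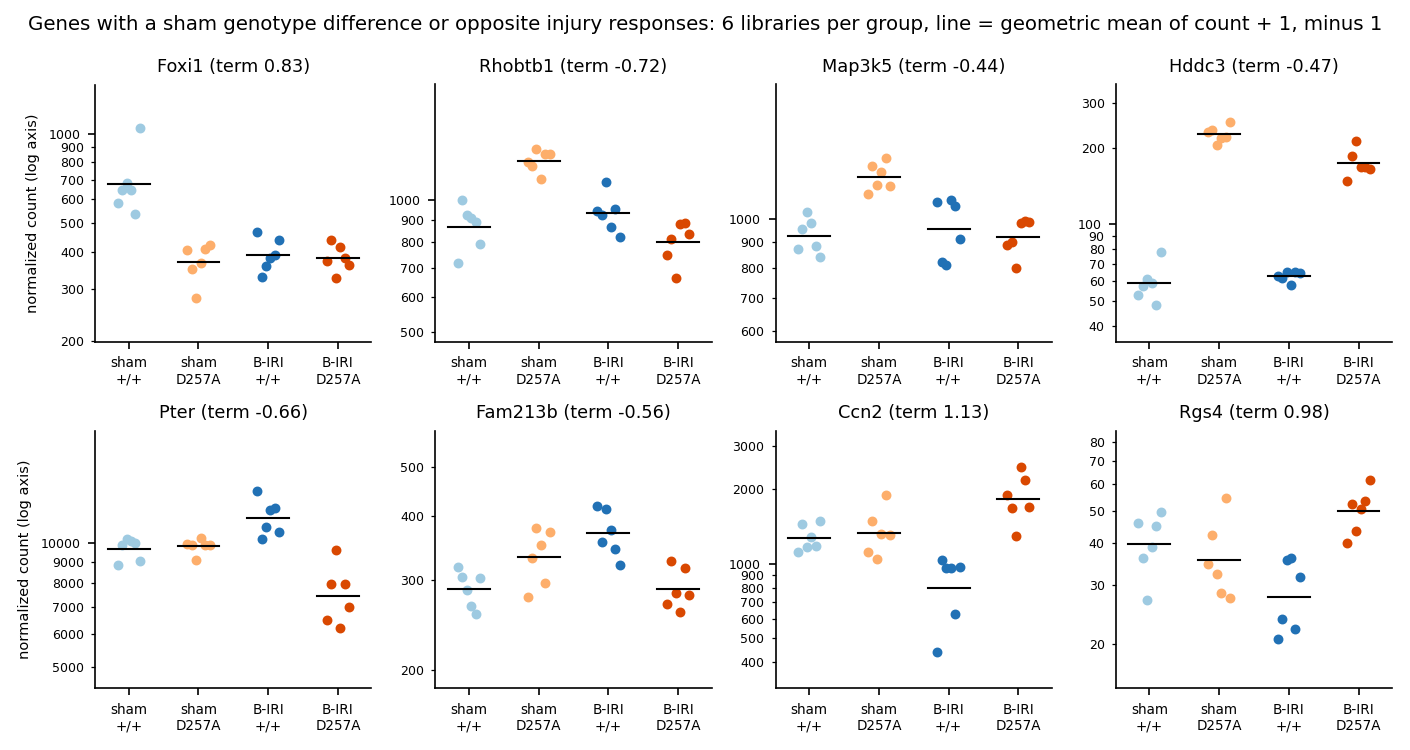
Normalized counts on log axes in the 24 libraries, 6 points per group with a line at the geometric mean of count + 1, minus 1. The upper row shows genes whose sham groups are apart (Foxi1, Rhobtb1, Map3k5, Hddc3), and in the lower row the B-IRI mean lies above the sham mean in 1 genotype and below it in the other (Pter, Fam213b, Ccn2, Rgs4).

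In 10 of the 362 genes with responses of opposite sign both injury responses passed. Ccn2 (chr10:24595442-24598683), the matrix-associated growth regulator CTGF, lay at 1119 to 1485 (median 1231) normalized counts in sham Polg+/+, 1048 to 1893 (median 1314) in sham PolgD257A, 439 to 1031 (median 959.7) in B-IRI Polg+/+ and 1292 to 2458 (median 1792) in B-IRI PolgD257A. It fell with injury in Polg+/+ (-0.68 ± 0.18, adjusted p = 0.0031) and rose in PolgD257A (0.45 ± 0.18, adjusted p = 0.029), the B-IRI groups were apart, and the term was 1.13 ± 0.25, adjusted p = 0.0032. Rgs4, a brake on G protein signalling, did likewise at low counts (-0.50 in Polg+/+ and 0.47 in PolgD257A, term 0.98 ± 0.26, adjusted p = 0.011), and Tead3, 1 of the DNA-binding partners of YAP, by small amounts (-0.14 in Polg+/+ and 0.14 in PolgD257A, term 0.28 ± 0.07, adjusted p = 0.0058). The other seven rose in Polg+/+ and fell in PolgD257A. Pter, a phosphotriesterase-related gene of the proximal tubule, lay at 8839 to 10282 (median 9968) normalized counts in sham Polg+/+, 9138 to 10309 (median 9933) in sham PolgD257A, 10279 to 13444 (median 11512) in B-IRI Polg+/+ and 6201 to 9636 (median 7461) in B-IRI PolgD257A. Its responses were 0.25 in Polg+/+ and -0.40 in PolgD257A, with a term of -0.66 ± 0.11, adjusted p = 0.00054. Fam213b, a prostamide and prostaglandin F synthase, had responses of 0.36 in Polg+/+ and -0.21 in PolgD257A (term -0.56 ± 0.12, adjusted p = 0.0022). Nol3, an inhibitor of cell death, had a term of -0.57, Glod5 -0.57, the hexokinase Hk1 -0.39, the Rab-like Rabl6 -0.32 and Ptdss2, which makes phosphatidylserine, -0.25. While Hk1 fell with injury in PolgD257A, its paralog Hk2 had a term of 1.87 in the other direction (0.89 in Polg+/+ and 2.76 in PolgD257A).

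Among the 12 genes with a smaller response in PolgD257A, 9 had risen and 3 had fallen with injury in Polg+/+. They include the ER chaperones Calr (0.35 against 0.05) and Dnajb11 (0.26 against 0.01), the acyltransferase Acnat1 (0.69 against 0.09) and the inhibitor of helix-loop-helix factors Id3 (-0.58 against -0.10). This count was 3 to 21 when single libraries were left out.

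Since most genes with a term lay on the side of a wider response, each gene was also tested for departure from it, as the response in PolgD257A minus 1.61 times that in Polg+/+. This left 16 genes, 0.0918% of those tested, of which 1 was higher (0.00574%) and 15 lower (0.0861%) than the line. At an unadjusted p under 0.05 there were 2251. The median standard error was 0.186, against 0.139 for the interaction, so a gene that was not called need not lie on the line. Just inside the threshold was Fam213b (adjusted p = 0.044), and just outside were Igfbp3, Slc16a6 and Acp5 (0.0502 each). Of the 16, 13 also passed for the interaction.

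Leaving out 1 library moved this count between 0 and 114. Without B-IRI Polg+/+ replicate 5 no gene passed (1996 at an unadjusted p under 0.05), without replicate 3 of that group 3 did, and without B-IRI PolgD257A replicate 3 there were 114, all 16 among them. With separate slopes for rising and falling genes 11 passed, 10 of the 16 among them. Havcr1 (departure -2.17), Esrra, Nus1 and Fam213b then missed the threshold (adjusted p = 0.051 each), as did Gm49542 (0.060) and Them6 (0.10).

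**Figure D5:**
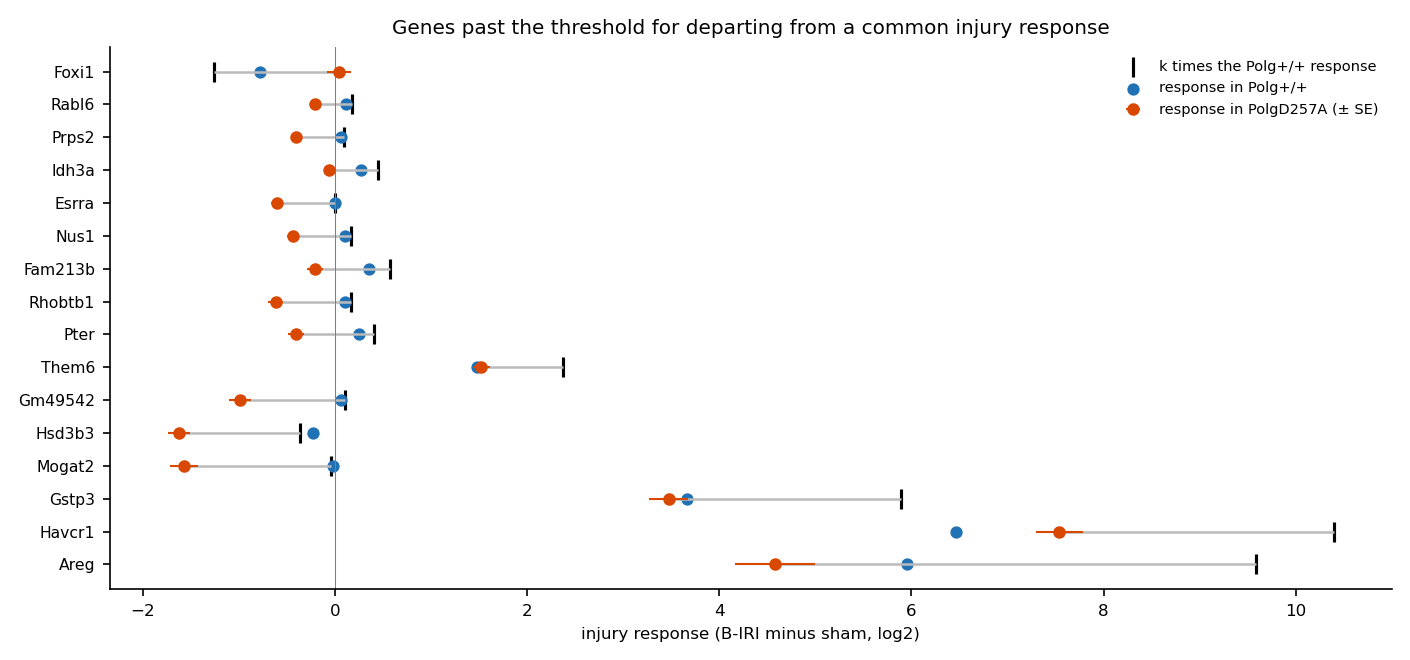
The 16 genes that passed for departure from a common injury response, with the response in Polg+/+ (blue), the response in PolgD257A with its SE (orange) and the value on the line of slope 1.61 (black tick), all as B-IRI minus sham on the log2 scale. Foxi1 lies above its line value and the other 15 genes lie below theirs.

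Beside Foxi1 and Rhobtb1, the departing genes fall into 3 patterns. First, Havcr1, Gstp3, Them6 and Areg rose with injury in both genotypes. The responses of Havcr1, Gstp3 and Them6 differed little for their size, whereas Areg started from sham levels that were apart. Havcr1 (chr11:46735080-46779578), the tubule injury marker KIM-1, lay at 112 to 180.1 (median 137) normalized counts in sham Polg+/+, 143 to 198 (median 171) in sham PolgD257A, 5441 to 24888 (median 14823) in B-IRI Polg+/+ and 25924 to 36062 (median 33755) in B-IRI PolgD257A. The B-IRI groups were apart, but the responses of 6.46 in Polg+/+ and 7.54 in PolgD257A differed by 1.07 ± 0.35, adjusted p = 0.035, which gives a departure of -2.86 ± 0.46, adjusted p = 0.0094. Its interaction term missed the threshold in 9 of the 24 fits that left out a library, with edgeR (adjusted p = 0.11), DESeq2 (0.053), library weights (0.058), robust variance estimates (0.064) and no filter (0.064). Gstp3, a glutathione transferase, lay at 55.0 to 71.4 (median 66.7) after B-IRI in Polg+/+ and 37.2 to 90.4 (median 70.2) in PolgD257A, which overlap (departure -2.42 ± 0.38, adjusted p = 0.0093). Them6, a thioesterase-like gene, lay at 905 to 1105 (median 952) and 806 to 1305 (median 1104) (departure -0.85 ± 0.17, adjusted p = 0.037).

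Areg, the EGF receptor ligand amphiregulin, had 0 reads in all 6 sham Polg+/+ libraries, 1.06 to 7.22 (median 4.06) in sham PolgD257A, 14.7 to 115 (median 80.8) in B-IRI Polg+/+ and 53.3 to 247 (median 119) in B-IRI PolgD257A. The sham groups were apart and the B-IRI groups overlapped, so the sham difference is part of the Areg departure. No fold is given against a group at 0, and its departure (-5.00 ± 0.79, adjusted p = 0.0093) depends on the added count, from -6.32 to -2.44 over the alternatives. With 5 added in place of 1 it was not called (adjusted p = 0.14). Without B-IRI Polg+/+ replicate 5, the departures of Areg, Gstp3 (adjusted p = 0.052 each) and Havcr1 (0.056) missed the threshold.

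Second, Hsd3b3, Mogat2, Esrra, Prps2, Nus1 and Gm49542 did not pass for injury in Polg+/+ and fell in PolgD257A. For Hsd3b3 the departure was -1.26 ± 0.22, adjusted p = 0.020. Mogat2 (chr7:99219084-99238619), an acyltransferase of triglyceride synthesis, lay at 213 to 400.0 (median 372) normalized counts in sham Polg+/+, 341 to 564 (median 520.1) in sham PolgD257A, 277 to 413 (median 309.7) in B-IRI Polg+/+ and 113 to 187 (median 164) in B-IRI PolgD257A. The 6 B-IRI PolgD257A kidneys lay below all others, and the departure was -1.53 ± 0.28, adjusted p = 0.028. Esrra lay at 3709.9 to 4447 (median 4239.9) normalized counts in sham Polg+/+, 4295 to 5024 (median 4594) in sham PolgD257A, 3804 to 4467 (median 4195) in B-IRI Polg+/+ and 2639.8 to 3383 (median 3120.0) in B-IRI PolgD257A, again with B-IRI PolgD257A apart from all other groups (departure -0.60 ± 0.11, adjusted p = 0.028). For Prps2 it was -0.50 ± 0.09, adjusted p = 0.028, and for Nus1, a subunit of the enzyme that makes dolichol for glycosylation, -0.60 ± 0.12, adjusted p = 0.034. Esrra and Prps2 overlap other genes on the opposite strand.

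Last, Pter (-0.81 ± 0.15, adjusted p = 0.028), Fam213b, Rabl6 and Idh3a rose with injury in Polg+/+ and lay at or below sham in PolgD257A. Idh3a, the catalytic subunit of the NAD-linked isocitrate dehydrogenase of the TCA cycle, lay at 3932 to 4269 (median 4179.7) normalized counts in sham Polg+/+, 4212 to 4595 (median 4422) in sham PolgD257A, 4850.5 to 5296 (median 4967) in B-IRI Polg+/+ and 3730.5 to 5036 (median 4124) in B-IRI PolgD257A. All 6 injured Polg+/+ kidneys exceeded all sham kidneys of both genotypes, whereas the injured PolgD257A kidneys overlapped with sham. The responses were 0.28 in Polg+/+ and -0.06 in PolgD257A, and the departure was -0.51 ± 0.10, adjusted p = 0.028. Rhobtb1 (-0.78 ± 0.15, adjusted p = 0.028) and Foxi1 (1.31 ± 0.23, adjusted p = 0.025) departed through the sham differences described above. Over the 24 fits that left out 1 library, Gstp3, Havcr1 and Areg each passed in 23, Foxi1 and Hsd3b3 in 22, Mogat2 in 20, Rhobtb1 in 19, Prps2 in 18, Esrra in 17, Pter in 16, Rabl6 in 14, Idh3a and Nus1 in 13, Them6 in 11, Gm49542 in 10 and Fam213b in 7. Ces1d and Ak4, whose interaction terms were among those with the smallest adjusted p, lay below the line without passing for departure (-0.75 ± 0.20, adjusted p = 0.13 and -0.87 ± 0.20, adjusted p = 0.077).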

How the data were processed

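RNA from mouse kidney was sequenced in 24 libraries, prepared with an RNeasy extraction and a NEBNext Ultra II kit per the labels' protocols. FastQC, STAR, SAMtools, featureCounts, DESeq2 and GRCm38.p6 are named in the submitters' processing notes, without versions or strand settings. The deposited table holds the authors' normalized counts, a signal scaled by 1 size factor per library. Dividing out each library's step gave whole reads for 100% of values within 0.001, with size factors of 0.740 to 1.31. The group of each column was read from its name (Ctrl or Mut, Sham or SurgBIR), taken as Polg+/+ or PolgD257A and as sham or B-IRI. The authors' second table was not used here. A few genes are not reported here.

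A gene was kept where 6 or more libraries reached 10 normalized counts, which left 17430. Values were tested as log2(normalized count + 1), a scale that understates changes of low genes, with limma 3.58.1 (trend, group means of all 24 libraries, 2-sided, Benjamini-Hochberg over all genes). edgeR 4.0.16 and DESeq2 1.42.0 were run on the recovered reads. The slope k is the orthogonal regression line through 0, treated as fixed in the departure test. Except for list members, genes named by rule averaged at least 100 counts. They were Ces1d, Hsd3b3, Ak4, Polg, Havcr1 and Lcn2 and the 8 largest terms in each direction. The 6 largest sham-made, crossing and departing genes (per direction for departures) were named too. Up to 4 leading members of each list, and members against their list's median, were named without this floor. Other genes, including the lower sham-made genes, the narrowed genes and further list members, were chosen after their values were seen, as were the widths per library. The members, 41 gene lists and tests were chosen with earlier results of these data known. Coordinates came from GENCODE M21, where 94.1% of 55416 gene IDs were found. The scripts were tested on simulated data. With 16689284 to 26341004 reads per library, the median standard error of a term was 0.139. Labels call the libraries biological replicates, but nothing says how animals were allotted, and p-values measure the spread between these libraries.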

Additional observations from a re-analysis of the deposited data

Results flagged for a closer look

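Of 212 groups of 6 libraries examined for the named genes and library measures, 11 held 1 library far from the others, where chance gives about 1 in 20 groups. B-IRI PolgD257A replicate 3 was low for both fibrinogen genes, Fgb at 471 (others 1521 to 2599) and Fgg at 2378 (others 6206 to 9369). Sham Polg+/+ replicate 6 was high for Foxi1 (1044) and low for Gm49542 (225) and Nat8f6 (1387). Sham PolgD257A replicate 3 was low for Pter (9138) and Tmem207 (243). B-IRI PolgD257A replicate 2 was low for Mogat2 (113), B-IRI Polg+/+ replicate 5 was high for Pvalb (459.9), and sham Polg+/+ replicate 3 was low for mt-Tp (3980). Sham Polg+/+ replicate 1 had the fewest reads, 16689284.

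The injury response differed between genotypes by its own test in 2780 genes. In 10 of them both responses passed with opposite signs, with terms of 1.13 for Ccn2, 0.98 for Rgs4, 0.28 for Tead3, -0.66 for Pter, -0.56 for Fam213b, -0.57 for Glod5, -0.57 for Nol3, -0.39 for Hk1, -0.32 for Rabl6 and -0.25 for Ptdss2.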

How the results depend on the processing

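Of 6500 values of 176 named results under the alternatives, 6126 kept direction and side of the threshold, 369 (40 results) lost the call, 3 gained it and 2 reversed, neither called: the Areg interaction was 0.49 on a square-root scale and that of Them6 -0.011 without B-IRI PolgD257A replicate 6 (range -0.011 to 0.13 over left-out libraries). Counting terms of at least 1 gave 357 genes, 147 positive and 210 negative. The departure count of 16 became 7 without a filter (6 shared), 89 with library weights (16 shared) and 2780 with k = 1. The sham genotype count of 22 became 55 with library weights and 59 with DESeq2, sham-made genes became 23 with library weights, and narrowed genes 4 without a filter. List medians moved to 1.08 for neutrophil genes with pseudocount 5, and to -0.090 for mitochondrial mRNAs and 0.21 for ribosomal proteins with quantile normalization.

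Leaving out 1 library gave 2101 to 3034 interaction genes (856 to 1321 positive, 1245 to 1745 negative), 6327 to 7305 and 10100 to 10572 injury genes in Polg+/+ and PolgD257A, and 15 to 30 and 4126 to 5221 genotype genes in sham and after B-IRI. It gave 1844 to 2566 widened, 237 to 483 crossing, 3 to 21 narrowed and 5 to 12 sham-made genes, 0 to 114 departing genes and k of 1.52 to 1.67. The crossing count was 237 without B-IRI Polg+/+ replicate 1, and the sham-made count 5 without sham PolgD257A replicate 4. The departure count also moved without sham Polg+/+ replicates 1 (7) and 5 (5), sham PolgD257A replicates 1 (25), 2 (9) and 4 (7), B-IRI Polg+/+ replicates 1 (7), 2 (25) and 3 (3) and B-IRI PolgD257A replicates 1 (10) and 2 (38). The cause was not tested.

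No label says that replicate numbers pair the animals. Of 36 same-numbered pairs of libraries, 2 correlated over 0.1 (median -0.011), and 4 correlated best with their own number. Such correlations cannot show whether animals were paired. With the replicate block the interaction count was 2326 (2297 shared) and the departure count 7 (7 shared).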

Other observations

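Among 18 genes known to differ by sex in mouse kidney, many of them proximal tubule enzymes, 9 had a negative and 2 a positive term. Over all genes tested the shares were 9.08% negative and 6.87% positive, for the lists here as well. Of 22 cell death genes 4 had a positive and 0 a negative term, among them the survival genes Mcl1 (0.36) and Bcl2l1 (0.31), the pore-forming Bak1 (0.38) and the necroptosis effector Mlkl (0.90). Of 24 hypoxia targets 3 were positive and 7 negative. The vasodilator peptide Adm (0.74) and the glucose transporter Slc2a1 (0.36) were positive, and Vegfa, a growth factor for vessels, was negative (-0.37). Fatty acid oxidation, a main fuel of the proximal tubule, had 3 negative terms and 0 positive ones among 24 genes. That share is near the 9.08% of all genes tested with a negative term, and the 3 were Etfa (-0.38), Acadm (-0.59) and Hadh (-0.38).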
